A study of Drosophila melanogaster with 12 samples.

Results

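The signals of 10 alpha-, beta- and gamma-tubulin genes were followed in Drosophila brains that expressed an untranslated CAG repeat RNA. The genes were chosen by family name and by the annotation of the array, with earlier results of these arrays known and with no measured value as a threshold. Of the 10, 8 had a probe set annotated to them, 1 each, among the 18769 non-control probe sets of the array. No probe set is annotated to alphaTub84B or gammaTub23C, and these genes were not analysed here. Of the 8 measured genes, 5 reached a log2 signal of 4 on at least 4 of the 12 arrays and were tested among 8966 such probe sets (47.8%), so the counts over the tested genes leave out the other 3.

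All flies carried elav-GAL4, a driver active in neurons, and a UAS transgene for the red fluorescent protein DsRed. In the genotype CAG0 the transgene had no repeat, in CAG100 its 3′ untranslated region held 100 CAG repeats, and in CAA/G105 it held a CAG repeat interrupted by CAA units. Per the series' description, transgene copies were set to equalise the mRNA, at 1 copy in CAG0, 5 in CAG100 and 2 in CAA/G105, so that repeat, copy number and line cannot be told apart. Each genotype had 4 independent samples of RNA pooled from about 20 brains of 3-day-old females kept at 25 °C, with eyes, lamina and outer medulla removed, and 1 array per sample. Values are log2 signals per probe set, and a difference of 1 on this scale is a doubling of signal.

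Microtubules are hollow polymers of alpha- and beta-tubulin heterodimers, nucleated by rings that contain gamma-tubulin, and in neurons they carry transport along axons and dendrites. Drosophila has several isotype genes for each tubulin. alphaTub84B and alphaTub84D encode nearly identical, broadly expressed alpha-tubulins, and betaTub56D is the general beta-tubulin of most tissues, including the nervous system. betaTub60D is best known from muscle and other differentiating cells, betaTub97EF from gut and haemocytes, and betaTub85D from the male germline, where it builds the sperm axoneme. alphaTub85E is a minor isotype of testis, muscle and support cells of sense organs, and alphaTub67C and gammaTub37C are isotypes of the female germline and early embryo.

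The arrays correlated at 0.9957 to 0.9986 within a genotype and at 0.9929 to 0.996 between genotypes. The 5 measured neuron markers had a summed log2 signal of 15.73 to 15.91 on all 12 arrays, and 0 passed in limma in any comparison (0, 0 and 2 at an unadjusted p under 0.05). Without the 2 arrays that carried osk, described below, 1 neuron marker was lower in CAG100 against CAG0 and 1 in CAG100 against CAA/G105. Of 11 glia markers, 0 were higher and 2 lower in CAG100 against CAG0, 3 and 1 in CAA/G105 against CAG0, and 1 and 2 in CAG100 against CAA/G105. Without the 3 arrays low in Akh, described next, these glia counts were 0 and 2, 0 and 0, and 0 and 1. The 6 photoreceptor markers, and the 2 tested markers each of trachea and of the female germline, gave no call in limma. At an unadjusted p under 0.05 the counts were 1, 0 and 1 for photoreceptors, 0, 0 and 1 for trachea and 0 for the female germline. The photoreceptor markers varied widely between arrays. Their summed log2 signal was 14.56 to 15.01 in CAG0, 14.12 to 15.04 in CAG100 and 13.95 to 14.93 in CAA/G105, and trp ran from 6.39 to 9.15. Some arrays stood apart in genes of other tissues. The summed log2 signal of the muscle markers was 12.96 on CAA/G105 replicate 1, against 10.82 to 11.83 on the other arrays. Akh, the adipokinetic hormone gene of the corpora cardiaca, was at 2.25 and 2.43 on CAG100 replicates 1 and 3 and at 2.06 on CAA/G105 replicate 3, against at least 11.04 on the other arrays. The oocyte and egg chamber gene osk was at 5.77 on CAG0 replicate 3 and 8.89 on CAG0 replicate 4, against at most 2.39 on the other 10. The tubulin results are therefore also given without the 3 arrays low in Akh, without the 2 that carried osk, and with each array left out in turn. The first setting leaves only replicates 2 and 4 of CAG100, and the second only replicates 1 and 2 of CAG0. In the 3 comparisons, 1639, 1184 and 1869 of all tested probe sets passed (18.3%, 13.2% and 20.8%). Without the 3 arrays low in Akh 925, 832 and 877 passed, and without the 2 that carried osk 1468, 1276 and 1994.

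**Figure D1:**
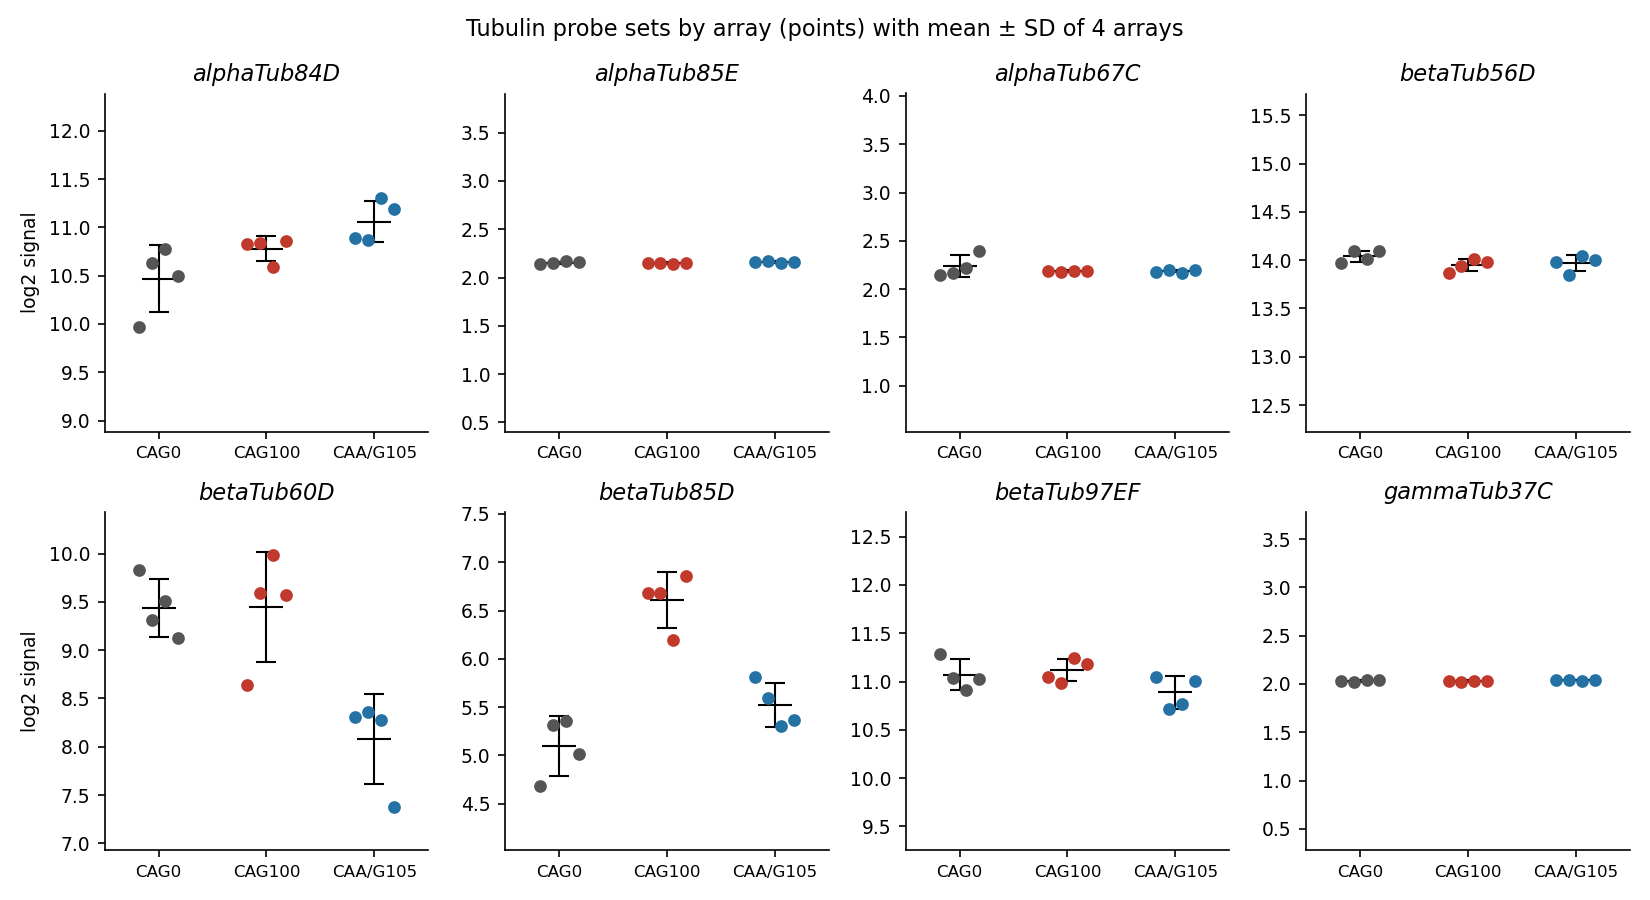
Log2 signal of the 8 measured tubulin probe sets on every array (points, replicates 1 to 4 from left to right) for the 3 genotypes, with the mean and SD of 4 arrays (bars). Every panel spans the same number of log2 units around its own midpoint; the betaTub85D points of CAG100, at 6.2 to 6.86, lie above all others of that gene, and the betaTub60D points of CAA/G105, at 7.38 to 8.36, lie below all others of that gene.

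The study compared CAG100 with CAG0 to find genes altered by a toxic repeat RNA, and CAA/G105 with CAG0 to set aside responses to a repeat without toxicity. betaTub85D was higher with CAG100 than with either other genotype, betaTub60D was lower with CAA/G105 than with either other genotype, and alphaTub84D was higher with CAA/G105 than with CAG0. Between CAG100 and CAG0, 1 of the 5 tested genes was higher and 0 were lower, where 18.3% of all tested probe sets passed. Between CAA/G105 and CAG0, 1 was higher and 1 lower, against a background of 13.2%. Between CAG100 and CAA/G105, 2 were higher and 0 lower, against 20.8%. The arrays of the genotypes did not overlap for 1, 2 and 3 of the 5 genes in these comparisons, where 20.8%, 17.6% and 25.4% of all tested probe sets did not overlap. The median differences of the 5 genes were 0.05, -0.08 and 0.23, beside -0.03, -0.01 and -0.02 over all tested probe sets. Of 15 differences of tubulin genes, 5 passed an adjusted p under 0.05 in one limma model over 12 arrays, with Benjamini-Hochberg adjustment over all tested probe sets. Each genotype's arrays enter more than 1 comparison, so the comparisons are not independent of each other, and since the genes were chosen with results known, the calls describe these arrays.

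**Figure D2:**
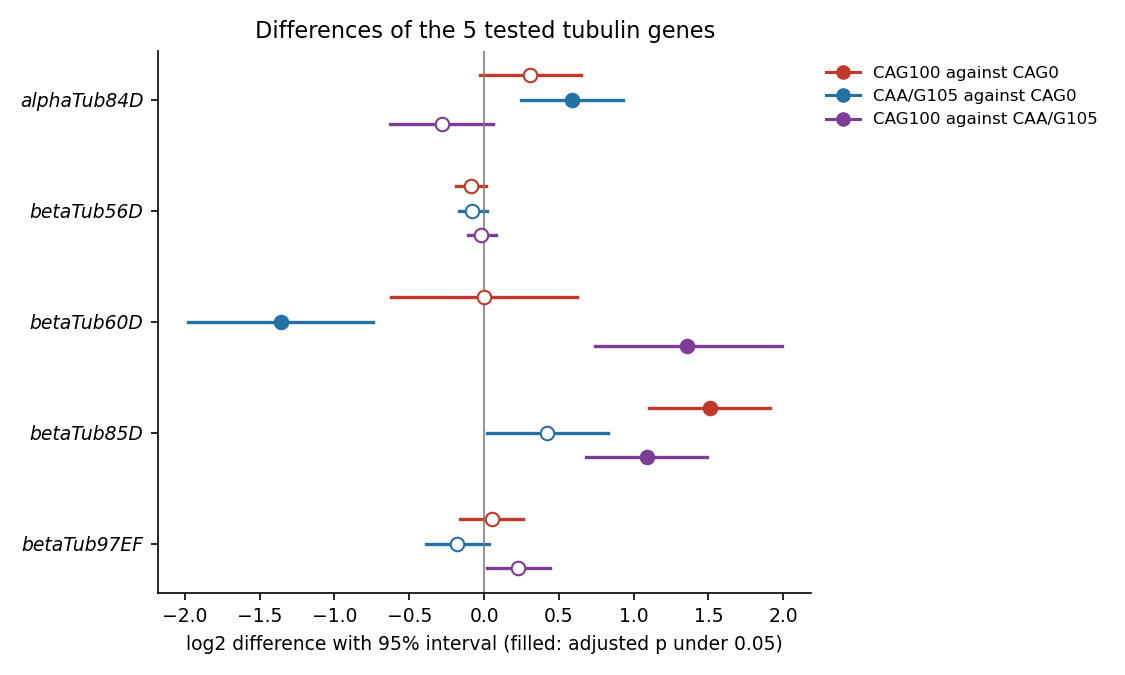
Log2 difference of each tested tubulin gene in the 3 comparisons (colours), with its 95% interval from the model; filled circles passed an adjusted p under 0.05. betaTub85D is filled in both comparisons of CAG100, betaTub60D in both comparisons of CAA/G105, and the intervals of betaTub56D stay between -0.19 and 0.08.

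alphaTub84D, one of the pair of general alpha-tubulins, was read by probe set 1633624_s_at. Affymetrix gives the suffix _s_at to probe sets whose probes also match other transcripts, so this signal may include alphaTub84B, whose gene lies on the same arm, 3R. Its log2 signal was 9.97, 10.63, 10.78 and 10.5 in CAG0. It was 10.83, 10.84, 10.59 and 10.86 in CAG100. It was 10.89, 10.87, 11.3 and 11.19 in CAA/G105. The means were lowest in CAG0 and highest in CAA/G105, CAG0 and CAG100 overlapped, and all 4 CAA/G105 arrays lay above every array of the other genotypes. The widest spread was within CAG0, where replicate 1 lay lowest of all 12 arrays.

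Against CAG0, alphaTub84D was higher in CAA/G105 by 0.59 ± 0.16 (SE, n = 4 arrays per genotype), a 1.51-fold difference, with a 95% interval from 0.25 to 0.93 and an adjusted p of 0.0259 in limma. CAG100 lay between the others: its difference from CAG0 was 0.31 with an interval from -0.03 to 0.65 (limma adjusted p = 0.197), and its difference from CAA/G105 was -0.28 with an interval from -0.63 to 0.06 (limma adjusted p = 0.223). Neighbours in the order CAG0, CAG100, CAA/G105 did not pass the test against each other. The call against CAG0 was lost without CAA/G105 replicate 3 (0.51, limma adjusted p = 0.0795), without CAA/G105 replicate 4 (0.55, 0.0711), without CAG0 replicate 4 (0.6, 0.0577), without the 3 arrays low in Akh (0.51, 0.111), without the filter on low values (0.0637) and with only the compared genotypes in the model (0.0641). It was kept without the 2 arrays that carried osk (0.76, limma adjusted p = 0.0231).

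betaTub56D, the general beta-tubulin of nervous tissue, was read by 1636530_s_at, which may likewise include transcripts of close copies. Its gene lies on arm 2R. It gave 13.97, 14.09, 14.01 and 14.1 in CAG0. It gave 13.87, 13.94, 14.01 and 13.98 in CAG100, and 13.98, 13.85, 14.04 and 14.0 in CAA/G105. The genotypes overlapped throughout, and all 12 arrays lay within 13.85 to 14.1. The SD of 4 arrays was 0.06, 0.06 and 0.08.

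No comparison of betaTub56D passed, and its intervals were the narrowest of the 5 tested genes. The differences were -0.09 with an interval from -0.19 to 0.01 for CAG100 against CAG0, -0.08 from -0.17 to 0.02 for CAA/G105 against CAG0, and -0.02 from -0.11 to 0.08 for CAG100 against CAA/G105. The limma adjusted p-values were 0.182, 0.329 and 0.824. A difference of more than 0.19 log2 units in either direction lies outside all 3 intervals.

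betaTub97EF, a beta-tubulin of gut and haemocytes, was read by 1625885_at, and its gene lies on arm 3R. It gave 11.29, 11.04, 10.91 and 11.03 in CAG0 and 11.05, 10.99, 11.24 and 11.18 in CAG100. It gave 11.05, 10.72, 10.77 and 11.01 in CAA/G105. All 3 genotypes overlapped. The mean was lowest in CAA/G105, at 10.89 ± 0.17 (SD, n = 4), with 11.07 ± 0.16 in CAG0 and 11.12 ± 0.11 in CAG100.

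No comparison of betaTub97EF passed. The difference between CAG100 and CAA/G105 was 0.23 with an interval from 0.02 to 0.44 (limma adjusted p = 0.119), that between CAA/G105 and CAG0 was -0.18 from -0.39 to 0.03 (0.278), and that between CAG100 and CAG0 was 0.05 from -0.16 to 0.26 (0.771).

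betaTub60D, the beta-tubulin known from muscle, was read by 1639503_at, and its gene lies on arm 2R. Its log2 signal was 9.83, 9.31, 9.51 and 9.13 in CAG0. It was 8.64, 9.59, 9.98 and 9.57 in CAG100. It was 8.31, 8.36, 8.28 and 7.38 in CAA/G105. All 4 CAA/G105 arrays lay below every array of CAG0 and CAG100, which overlapped. The lowest array of CAG100, replicate 1 at 8.64, lay just above the highest of CAA/G105, at 8.36, and CAA/G105 replicate 4 lay apart from the other 3 of its genotype.

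Against CAG0, betaTub60D fell by 1.36 ± 0.29 (SE, n = 4 per genotype) in CAA/G105, 2.57-fold, with an interval from -1.98 to -0.74 and a limma adjusted p of 0.00712. CAG100 was higher than CAA/G105 by 1.36 ± 0.29, also 2.57-fold, with an interval from 0.74 to 1.99 and a limma adjusted p of 0.00524. The 9.45 ± 0.57 of CAG100 and the 9.44 ± 0.3 of CAG0 (SD, n = 4) did not differ beyond their spread, and the interval of that difference ran from -0.62 to 0.62 (limma adjusted p = 0.997). Without CAA/G105 replicate 4 the difference from CAG0 was -1.13 (limma adjusted p = 0.0184). It was -1.43 without the 3 arrays low in Akh (limma adjusted p = 0.00662) and -1.48 without the 2 arrays that carried osk (0.0279).

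In bulk brain RNA, fewer cells of a type and less RNA per cell cannot be told apart. Of 14 haemocyte markers, 4 were lower in CAA/G105 than in CAG0, namely Hml, PPO1, PPO2 and SPARC at -0.88, -0.84, -0.59 and -0.4, and none was higher, beside 13.2% of all tested probe sets that passed. The rest did not pass, among them NimC1 at -0.2, Pxn at -0.18 and crq at -0.01. The summed log2 signal of the 14 markers was 15.64 to 16.04 in CAG0, 15.83 to 15.99 in CAG100 and 15.41 to 15.68 in CAA/G105, and 1 marker was lower without the 3 arrays low in Akh. In CAG100 against CAA/G105, 4 were higher (PPO2, PPO1, SPARC and Nplp2) and 0 lower, beside 20.8%, and 2 were higher without these 3 arrays. Of 11 measured muscle markers 7 were tested, and against CAG0 only the flightin gene fln passed in CAA/G105, at -1.96 ± 0.11 (limma adjusted p = 6.91e-08). In CAG100 against CAA/G105, fln was higher by 1.94 and the actin gene Act79B was lower, at -0.91, and without the 3 arrays low in Akh 1 of the list was higher and 0 were lower. The summed signal of the muscle list was 11.1 to 11.83 in CAG0, 11.04 to 11.74 in CAG100 and 10.82 to 12.96 in CAA/G105, and TpnC4 and sls of that list stayed under 4 on every array. In CAA/G105 the 12.96 was on replicate 1, and the other arrays of that genotype were at 10.82 to 11.15. Without CAA/G105 replicate 1, betaTub60D differed from CAG0 by -1.435 (limma adjusted p = 0.0128). The part of haemocytes and muscle in the betaTub60D result was not tested. The 3′ minus 5′ signal of the GAPDH control probe sets, a sign of RNA quality, was 1.74 to 1.81 in CAA/G105, above the 1.64 to 1.73 of CAG0 and the 1.7 to 1.73 of CAG100. The 2 other controls did not separate CAA/G105 from CAG0. Act5C was at 1.83 to 2.04 against 1.92 to 2.12, and eIF-4a at 2.1 to 2.27 against 2.23 to 2.36, toward lower values. The part of RNA quality in the betaTub60D and alphaTub84D results was not tested.

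betaTub85D, the sperm axoneme beta-tubulin, was read by 1624746_at, and its gene lies on arm 3R. Its log2 signal was 4.68, 5.32, 5.36 and 5.02 in CAG0. It was 6.68, 6.68, 6.2 and 6.86 in CAG100. It was 5.81, 5.59, 5.31 and 5.37 in CAA/G105. Every CAG100 array lay above every array of the other genotypes, while CAA/G105 and CAG0 overlapped at 5.31 to 5.36. All 12 arrays passed the filter, with the CAG0 arrays close to its minimum of 4.

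betaTub85D was higher in CAG100 than in CAG0 by 1.51 ± 0.19 (SE, n = 4 per genotype), 2.84-fold, with an interval from 1.1 to 1.91 and a limma adjusted p of 0.000157. It was higher in CAG100 than in CAA/G105 by 1.09 ± 0.19, 2.12-fold, with an interval from 0.68 to 1.49 and a limma adjusted p of 0.00139. The difference of CAA/G105 from CAG0 was 0.42 with an interval from 0.02 to 0.83, and it did not pass after adjustment (limma adjusted p = 0.171). Without the 3 arrays low in Akh, of which 2 are CAG100, the difference from CAG0 was 1.67 (limma adjusted p = 0.00142). Without the 2 arrays that carried osk it was 1.6 (limma adjusted p = 0.0019).

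The brains were from females. Of 11 measured genes of the male germline, among them the sperm genes dj and the Mst family, 10 stayed under log2 4 on every array. The remaining gene, twe, a Cdc25-type phosphatase needed for meiosis, fell by 0.77 ± 0.19 in CAG100 against CAG0 (limma adjusted p = 0.0165). The twe call was lost without the 3 arrays low in Akh and without the 2 that carried osk, which had the highest twe signals, 8.56 and 8.17. The summed signal of the list was 7.95 to 8.72 in CAG0, 7.43 to 7.88 in CAG100 and 7.93 to 8.32 in CAA/G105. Of 15 measured genes of ciliated sensory neurons, 11 stayed under 4 on every array. Of that list nompA, which encodes a protein that links sensory dendrites to the cuticle, was higher in CAG100 than in CAG0 by 0.96 ± 0.24 (limma adjusted p = 0.0161). It was the 1 of 4 tested genes of the list that passed, with a list median of -0.1, and 0 were higher without the 3 arrays low in Akh or without the 2 that carried osk. The summed signal of this list was 10.77 to 10.91 in CAG0, 10.92 to 10.94 in CAG100 and 10.73 to 10.98 in CAA/G105. The part of male germline or ciliated sensory cells in the betaTub85D result was not tested.

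For RNA quality, the 3′ minus 5′ signal of the eIF-4a control probe sets was 1.83 to 2.01 in CAG100, below the 2.23 to 2.36 of CAG0 and the 2.1 to 2.27 of CAA/G105. The same measure overlapped between all genotypes for Act5C, at 1.86 to 2.01 in CAG100 and 1.92 to 2.12 in CAG0. The part of the eIF-4a measure in the result was not tested.

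**Figure D3:**
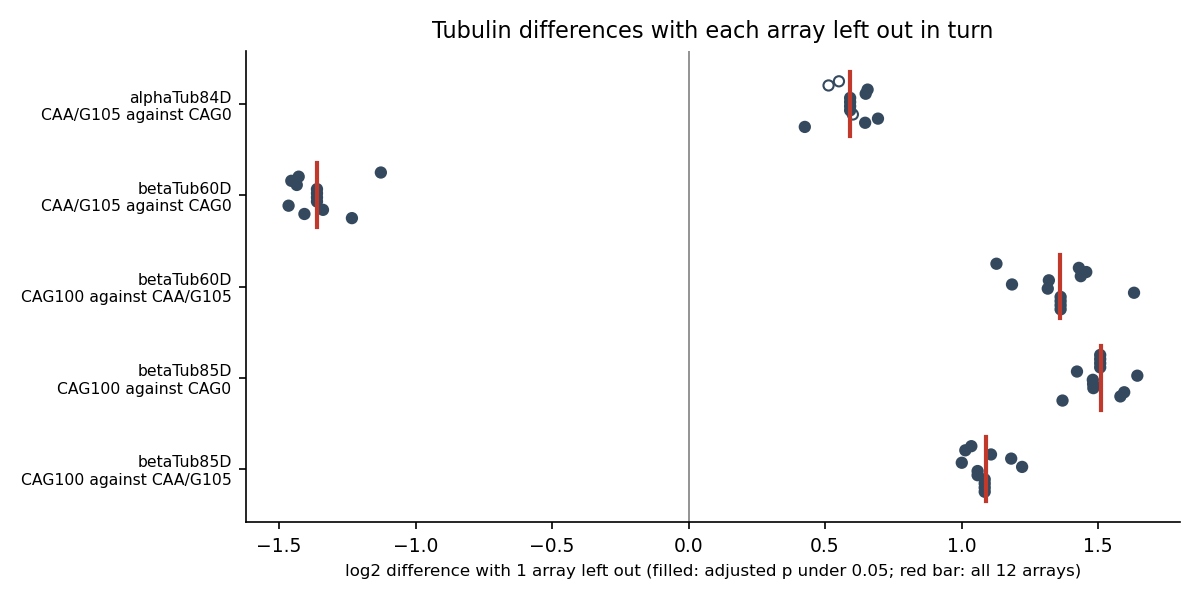
The 5 differences of tubulin genes that passed, recomputed with each of the 12 arrays left out (circles), beside the value from all arrays (red bars); filled circles passed an adjusted p under 0.05. The betaTub85D and betaTub60D circles are all filled and keep their side of 0, from 1.0 to 1.64 and from 1.13 to 1.63 log2 units in size, and 3 of the 12 circles of alphaTub84D are open. Circles for arrays of the genotype outside a comparison lie on the red bar, since leaving them out does not change the difference.

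The other 3 measured genes had no signal above the minimum. alphaTub85E gave 2.14 to 2.17, gammaTub37C gave 2.02 to 2.04 and alphaTub67C gave 2.15 to 2.4 on the 12 arrays, and none of them was tested. The highest alphaTub67C value, 2.4, was on CAG0 replicate 4, and the next, 2.22, on CAG0 replicate 3, while the other 10 arrays lay at 2.15 to 2.2. These arrays had signal of some egg chamber genes besides osk: BicC was at 6.21 on replicate 3 and 6.79 on replicate 4, and dhd at 4.87 and 6.11, with the other 10 arrays at most at 2.02 and 2.33. Of the 16 measured markers of the female germline and egg chamber, 11 stayed under 4 on every array. CycB, the cyclin B gene of dividing cells, was at 6.06 and 7.37 on CAG0 replicates 3 and 4 and at most at 2.5 on the others. Of the 8 measured markers of dividing cells, the other 7 stayed under 4 on every array. gammaTub37C, also a female germline gene, was at 2.04 on both. These genes were picked after their values were seen.

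The gene patterns most like betaTub85D, the tubulin with the largest F statistic over the genotypes (35.1), were sought by Pearson correlation over the 12 arrays among the tested genes. The 5 highest were Syt7, a calcium sensor of the synaptotagmin family (r = 0.956), CG12730 (0.941), Mgstl, a microsomal glutathione transferase (0.937), tyn, a gene for a membrane protein with a zona pellucida domain (0.935), and Septin1, a filament-forming GTPase (0.933). The points share arrays and genotypes, so r is given as a description. Against CAG0, CAG100 was higher by 4.52 in tyn, 2.83 in Mgstl, 0.45 in Syt7, 0.32 in Septin1 and 0.18 in CG12730. Mgstl and Septin1 each had 2 tested probe sets, and these values are from the one more like betaTub85D, with the other not described here. The CAG0 signals of the Mgstl probe set, 3.98 to 4.21, lay at the filter's minimum of 4. As in betaTub85D, the CAG100 mean was the highest and the CAG0 mean the lowest in all 5. The genes were chosen for their likeness on these same arrays, so this shared order comes with the choice and is no separate result. The F statistics of the other tubulins were 15.1 for betaTub60D, 7.14 for alphaTub84D, 3.03 for betaTub97EF and 2.36 for betaTub56D.

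**Figure D4:**
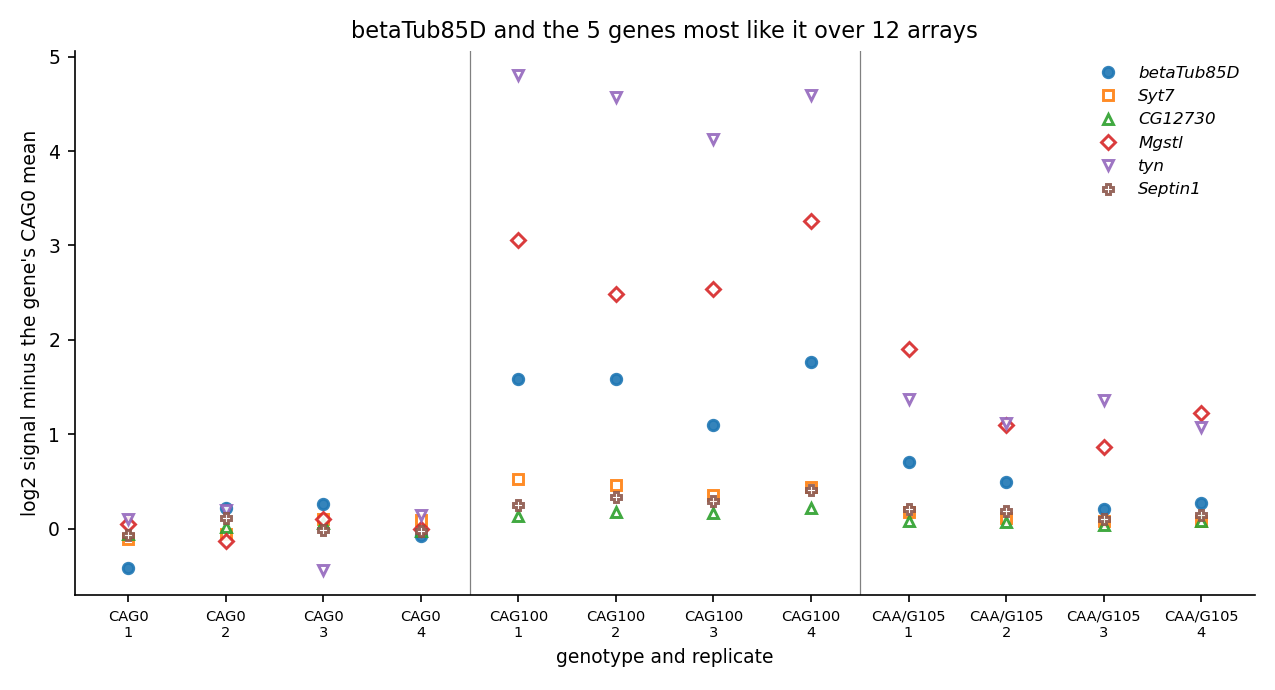
Log2 signal of betaTub85D (filled circles) and of the 5 genes with the highest correlation to it, each minus its own CAG0 mean, for the 12 arrays by genotype and replicate. By mean, all 6 genes are highest in CAG100, with CAA/G105 between, an order that comes with their choice by correlation. The size of the rise from CAG0 to CAG100 runs from 0.18 for CG12730 to 4.52 for tyn.

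The genes that fold, nucleate, bind, modify and move along tubulin were taken from lists drawn up with results of these arrays known. The gene lists are described by counts and medians, to be read against the 18.3%, 13.2% and 20.8% of all tested probe sets that passed. Counts without the 3 arrays low in Akh belong beside the 925, 832 and 877 of 8907 tested probe sets that passed there. Those without the 2 that carried osk belong beside 1468, 1276 and 1994 of 8936. Folding of tubulin needs the CCT chaperonin, the prefoldin complex and the tubulin cofactors. Of 16 tested chaperone and cofactor genes, none was higher and 1, the cofactor gene Tbce, was lower in CAG100 than in CAG0, by -0.15. In CAA/G105 against CAG0, 1 was higher and 0 were lower. This gene, the chaperonin subunit CCT7, gave 10.24, 10.35, 10.17 and 10.41 in CAG0 and 10.81, 10.73, 10.94 and 11.06 in CAA/G105, which did not overlap. It was higher in CAA/G105 by 0.59 ± 0.11 (limma adjusted p = 0.00276). None of the other chaperonin subunits passed there. Their differences ran from -0.25 for CCT5 to 0.07 for CCT6, and all but CCT6 were below 0. In CAG100 against CAA/G105, the prefoldin genes Pfdn6 and Pfdn2 were higher by 0.28 and 0.19 and CCT7 was lower, at -0.36. Without the 3 arrays low in Akh, 1 was higher and 0 were lower in that comparison, and 0 passed in CAG100 against CAG0. The list medians were 0.03, -0.14 and 0.11.

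The gamma-tubulin ring complex and related nucleation factors were lower in part. Of 9 tested genes, 4 fell in CAG100 against CAG0 and none rose, with a list median of -0.21. All 4 encode subunits of the ring complex. Grip71, which recruits the complex to the spindle, gave 5.92, 6.1, 5.71 and 6.32 in CAG0 and 5.37, 5.24, 5.35 and 5.44 in CAG100. It fell by 0.66 ± 0.12 (limma adjusted p = 0.00297), with no overlap between the genotypes. Grip128 fell by 0.62 ± 0.14 (limma adjusted p = 0.00963), Grip91 by 0.28 ± 0.06 (0.00615) and Grip84 by 0.24 ± 0.08 (0.0476), and the Grip84 arrays overlapped. The signals of Grip71, 5.24 to 6.32, and of Grip128, 5.08 to 6.16, were low, not far above the minimum of 4. Those of Grip91 and Grip84 were 9.83 to 10.2 and 10.27 to 10.65. Without the 3 arrays low in Akh, 3 of the list were lower. In CAA/G105 against CAG0, 3 were lower and 0 higher, Grip128 at -0.48, the pericentrin-like gene Plp at -0.22 and Grip91 at -0.2, and none passed without the 3 arrays low in Akh or without the 2 that carried osk. Between CAG100 and CAA/G105, Grip163 and Grip71 were lower, both at -0.38, and Plp was higher by 0.2, and none of the 9 passed without the 3 arrays low in Akh. CAG0 enters both comparisons against it.

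**Figure D5:**
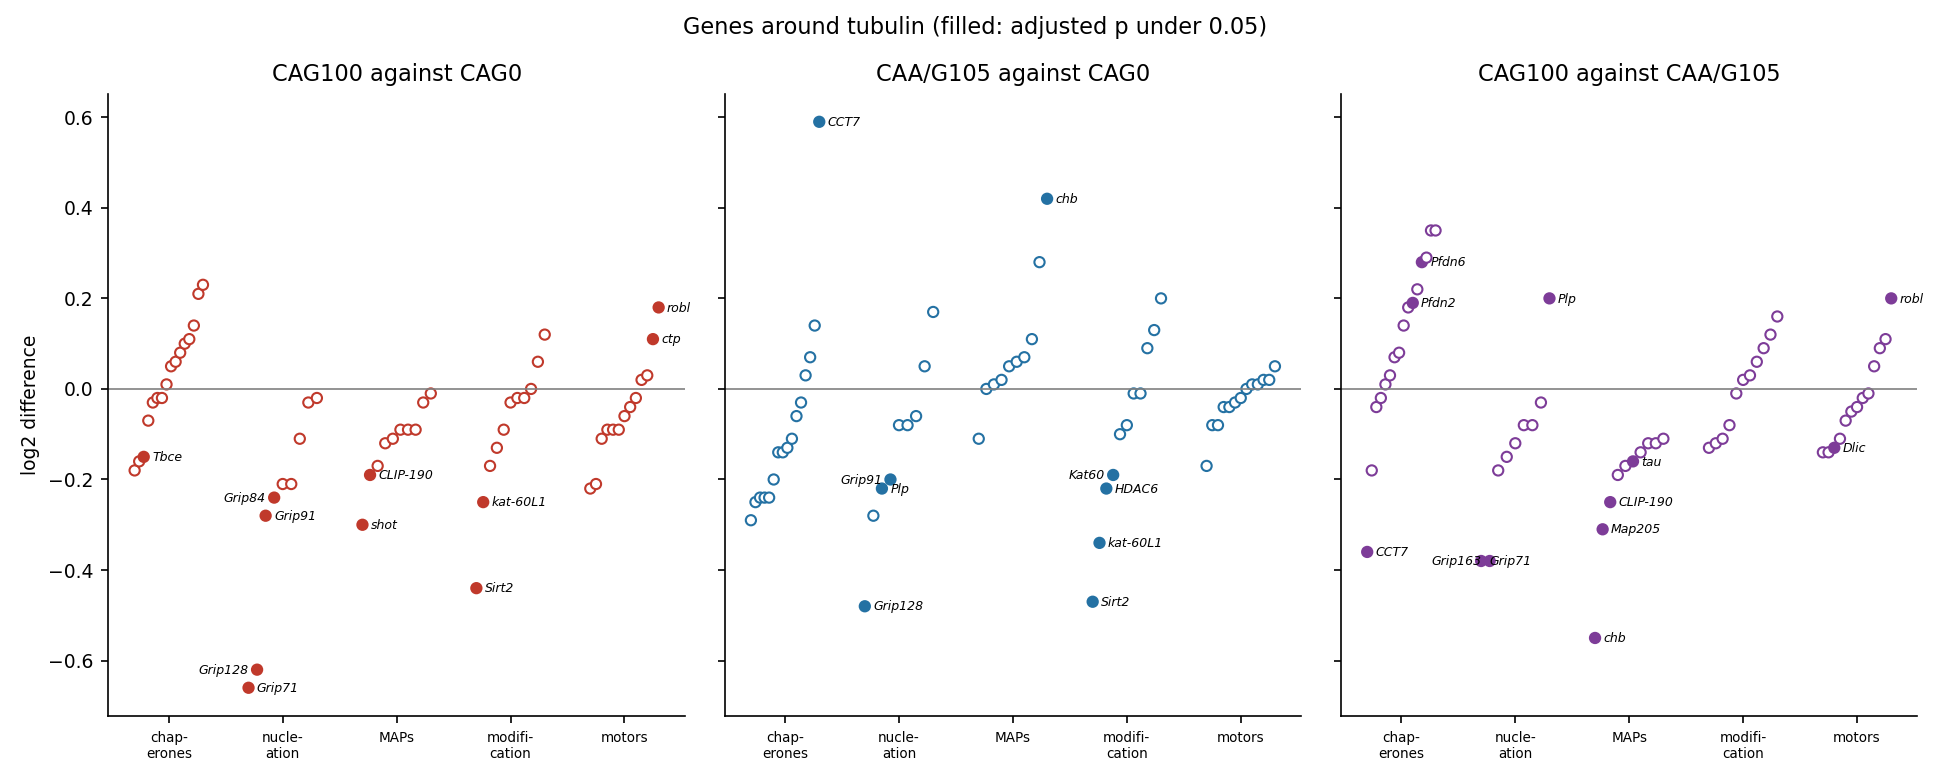
Log2 difference of every tested gene of 5 lists (chaperones and cofactors, nucleation, microtubule-associated proteins or MAPs, modification and severing, motors) in the 3 comparisons, ordered within a list by size; filled circles passed an adjusted p under 0.05 and carry the gene's name. Differences run from -0.66 for Grip71 in CAG100 against CAG0 to 0.59 for CCT7 in CAA/G105 against CAG0.

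Of 10 tested genes for proteins that bind microtubules, 2 fell in CAG100 against CAG0, shot, whose product links actin and microtubules, by 0.3 and CLIP-190, a gene for a plus-end binding protein, by 0.19, and 0 rose. The CLASP gene chb, whose product stabilises microtubule ends, gave 11.71, 11.57, 11.58 and 11.69 in CAG0, 11.56, 11.41, 11.55 and 11.55 in CAG100 and 12.0, 12.06, 12.11 and 12.09 in CAA/G105. All CAA/G105 arrays lay above the rest. chb was the 1 gene of the list that passed in CAA/G105 against CAG0, higher by 0.42 ± 0.05 (limma adjusted p = 9.48e-05), and no gene was lower. In CAG100 against CAA/G105, 4 were lower and 0 higher: chb at -0.55 ± 0.05 (limma adjusted p = 9.45e-06), Map205 at -0.31, CLIP-190 at -0.25 and tau at -0.16. Without the 3 arrays low in Akh, 2 of the list were lower in that comparison, and without the 2 that carried osk, 1 was lower in CAG100 against CAG0. The medians were -0.1, 0.06 and -0.16.

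Of 11 tested genes for enzymes that modify or sever microtubules, 2 fell in CAG100 and 4 in CAA/G105 against CAG0, and none rose. Sirt2, a deacetylase whose mammalian counterpart acts on alpha-tubulin, gave 11.74, 11.52, 11.53 and 11.62 in CAG0. It gave 11.11, 11.05, 11.26 and 11.22 in CAG100 and 11.25, 11.08, 11.06 and 11.16 in CAA/G105. Both repeat genotypes lay below all CAG0 arrays and overlapped each other. Sirt2 fell by 0.44 ± 0.07 in CAG100 (limma adjusted p = 0.000738) and by 0.47 ± 0.07 in CAA/G105 (0.000537). The katanin-like severing gene kat-60L1 fell by 0.25 and by 0.34. The tubulin deacetylase gene HDAC6 fell by 0.22 and the katanin gene Kat60 by 0.19 in CAA/G105. None of the 11 passed between CAG100 and CAA/G105 in limma; the genes with the smallest p-values were kat80 at -0.12 (unadjusted p = 0.0548 in limma) and HDAC6 at 0.12 (0.0656), so 0 of these genes had an unadjusted p under 0.05. In CAG100 against CAG0, 1 was lower without the 3 arrays low in Akh and 3 without the 2 that carried osk. The medians of this list were -0.03, -0.08 and 0.02.

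Of 13 tested motor genes, 2 rose in CAG100 against CAG0, the dynein light chain genes robl by 0.18 and ctp by 0.11, with overlapping arrays in both, and 0 fell. None of the 13 passed in CAA/G105 against CAG0 in limma, adjusted or unadjusted, where the smallest limma adjusted p was that of the dynactin gene DCTN1-p150 (-0.17, unadjusted p = 0.0556, adjusted p = 0.205). Between CAG100 and CAA/G105, robl was higher by 0.2 and Dlic, which encodes the dynein light intermediate chain, was lower, at -0.13, and none of the 13 passed there without the 3 arrays low in Akh. In CAG100 against CAG0, 1 was higher and 0 lower without these arrays, and 1 higher and 2 lower without the 2 that carried osk. The medians were -0.06, -0.02 and -0.04. Of the 2 further genes with a tubulin-like sequence, CG7794 stayed at 2.09 to 2.2, and betaTub65B, at 4.31 ± 0.05 in CAG0, was higher in CAA/G105 by 0.59 ± 0.14 (limma adjusted p = 0.0165), a call lost without the 3 arrays low in Akh and without the 2 that carried osk.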

How the data were processed

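Per the labels, total RNA was amplified with a NuGEN system, labelled with biotin and hybridised to 1 single-colour Affymetrix array per sample. Per the submitters' processing notes the deposited log2 values were made with GCRMA and Partek, with settings and genome build not given in the sources used here. Each genotype has 4 arrays, which limits the precision.

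The table held 18952 probe sets, 183 of them controls, and 13647 name 1 gene, 402 several and 4720 none. None that names several genes held a tubulin. Symbols were updated through a RefSeq gene table (13544 matched), used only for names and chromosome arms. Probe sets at log2 4 or more on at least 4 of 12 arrays were tested in limma 3.58.1 (R 4.3.3) with 1 mean per genotype and a variance trend, checked on simulated data, with the Benjamini-Hochberg adjustment and a threshold of 0.05. The probe set with the highest mean stood for a listed gene. A marker list's summed signal is the log2 of its summed linear signals.

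All tubulins were named, and of each list at most 4 genes that passed, by size, or the 2 with the smallest p. Members and lists were chosen with earlier results of these data known. A protein comparison was not made. Alternatives covered filter, scaling, variance model, samples, replicate block, threshold and arrays left out.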

Additional observations from a re-analysis of the deposited data

Results flagged for a closer look

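Within each genotype the lowest and the highest of the 4 arrays were set against the other 3 for the 8 measured tubulin genes, 24 groups of 4 in all. A gap to the nearest array above Dixon's 95% critical value for its share of the group's whole range marked an array that stood far from the others, and chance marks about 1 in 20 groups. This marked 2 groups. betaTub60D on CAA/G105 replicate 4 was at 7.38, against 8.28 to 8.36 on the other 3 arrays, a gap of 0.918 of the range. alphaTub84D on CAG100 replicate 3 was at 10.59, against 10.83 to 10.86, a gap of 0.905. CAG100 replicate 3 is one of the arrays low in Akh, and CAA/G105 replicate 4 is not. Without CAA/G105 replicate 4, betaTub60D differed from CAG0 by -1.127 (limma adjusted p = 0.0184) and CAG100 from CAA/G105 by 1.128 (0.0188).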

How the results depend on the processing

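Each result was recomputed under 23 alternatives, 12 of which leave out 1 array. Leaving out the 2 arrays that carried osk was chosen after seeing the data. Several alternatives cannot change a difference, only its call. These are the changes of filter, variance trend, threshold, replicate block and genotypes in the fit. Leaving out an array of the genotype outside a comparison also keeps its difference as it was. Of the 5 tubulin differences that passed, 4 kept their direction and their call under all of them: betaTub85D in CAG100 against CAG0 (1.37 to 1.674, limma adjusted p 8.04e-05 to 0.0019) and against CAA/G105 (1.001 to 1.222, 0.000468 to 0.0099), and betaTub60D in CAA/G105 against CAG0 (-1.484 to -1.127, 0.00188 to 0.0279) and in CAG100 against CAA/G105 (1.128 to 1.632, 0.000696 to 0.0188). alphaTub84D in CAA/G105 against CAG0 ranged from 0.426 to 0.76 with adjusted p from 0.00856 to 0.111. The count of tubulins that passed there was 2, and it was 1 with no filter, with 2 genotypes in the fit, at an adjusted p under 0.01, without the 3 arrays low in Akh, and in 3 of the alternatives that leave out 1 array (1 to 2). Over all probe sets, the counts 1639, 1184 and 1869 became 797, 642 and 979 at an adjusted p under 0.01, and 925 for CAG100 against CAG0 and 877 for CAG100 against CAA/G105 without the 3 arrays low in Akh; leaving out 1 array gave 1097 to 1931, 858 to 1513 and 1326 to 2131. Differences that never passed changed sign near 0: betaTub60D in CAG100 against CAG0 was -0.025 after a median shift of the arrays, -0.121 without the 2 arrays that carried osk and -0.177 to 0.27 with 1 array left out. betaTub97EF there was -0.048 without these 2 arrays and -0.001 to 0.123 with 1 array left out. betaTub56D in CAG100 against CAA/G105 was 0.019 without the 3 arrays low in Akh and -0.054 to 0.011 with 1 array left out. Where a value moved, the cause was not tested. The labels do not say that the replicate numbers pair the samples. With the genotype means removed, 3 of 12 same-numbered pairs of arrays correlated above 0.1 (from -0.259 to 0.39). Of 36 pairs with different numbers, 10 did (from -0.395 to 0.399). The replicate block left the tubulin counts at 1, 2 and 2 and gave 1466, 1090 and 1730 probe sets in all. The CAG0 signals of betaTub85D, 4.68 to 5.36, lie close to the minimum of 4, and a signal over background was not computed here.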

Other observations

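The 5 nearest tested genes on either side of each tested tubulin along its chromosome arm were examined, a window chosen after values were seen. Beside betaTub85D on 3R, 3 of 10 were higher and 1 was lower in CAG100 against CAG0, and the same numbers held in CAA/G105 against CAG0, beside 18.3% and 13.2% of all tested probe sets that passed. The largest difference there was that of GstZ1, a glutathione transferase gene, at 3.05 in CAG100 and 3.2 in CAA/G105. Between CAG100 and CAA/G105, where betaTub85D was higher, 0 of its 10 neighbours were higher and 3 were lower, beside 20.8%. Of the 10 neighbours of betaTub56D on 2R, 2 were lower and 0 higher in each comparison against CAG0, and 1 was higher and 2 lower in CAG100 against CAA/G105. At an unadjusted p under 0.05 in limma the counts were 3 in CAG100 against CAG0, 7 in CAA/G105 against CAG0 and 4 in CAG100 against CAA/G105. The share of all tested probe sets under this unadjusted threshold is not given here, so these counts have no background to be read against. The median differences of these neighbours were -0.06, -0.21 and -0.01. Of the neighbours of alphaTub84D, 1 was higher in CAG100 against CAA/G105 and 0 passed in the comparisons against CAG0, and 0 of the neighbours of betaTub97EF passed in limma in any comparison. None of the 10 neighbours of betaTub60D passed in any comparison in limma (2, 0 and 0 at an unadjusted p under 0.05), and their largest difference in CAA/G105 against CAG0 was 0.22, that of CG3376.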
